A study of Mus musculus with 26 samples.

Results

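The 44 collagen genes of the mouse genome that the deposited count table lists as protein coding were described in motor neuron spheroids under 5 culture conditions. They were chosen by their symbols (Col, a number, a, a number), and are 44 of 56941 genes and 44 of 21606 protein-coding genes in the table. By textbook class, 11 are fibrillar, 8 are basement membrane collagens and 25 belong to other classes. The rule itself uses no measured value.

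A collagen is a triple helix of 3 chains, each rich in repeats of glycine with proline and hydroxyproline. Fibrillar collagens pack into the fibrils of connective tissue and are made mainly by fibroblasts and other mesenchymal cells. Basement membrane collagens form or decorate the sheet beneath epithelia and around vessels, muscle fibres, Schwann cells and the surface of the brain, while most neurons make little collagen.

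All libraries came from the mouse embryonic stem cell line HBG3, in which GFP reports HB9 (Mnx1), a motor neuron transcription factor, on a heterozygous background. The stem cells had been expanded on a feeder layer, were turned into spheroids with retinoic acid and a sonic hedgehog agonist (CNTF and GDNF from day 5), and were seeded on fibrin at about day 8. The study set moving the matrix apart from giving the cells medium conditioned by muscle. The actuated group (n = 4) sat on a magnetic silicone array that was moved at 4 Hz for 30 min a day, and the static array group (n = 4) sat on such an array that was never moved. The high-intensity and low-intensity groups (n = 6 each) carry labels for a biochemical treatment of those names, and the biochemical control group (n = 6) is called control here. The series text speaks of medium from light-stimulated and unstimulated muscle, and its names for them do not appear in the sample labels, so high and low intensity are used as given. Nothing says which replicates came from separate cultures, so the p-values measure the spread between these samples, which may be technical.

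Depth differed between the groups: 7269276 to 9839951 counts in the deeper actuated libraries, 7724923 to 13162635 counts in the deeper static array libraries, 2408099 to 3971348 counts in the deeper high-intensity libraries, 1551334 to 3602716 counts in the deeper low-intensity libraries and 2273487 to 3771637 counts in the deeper control libraries. The 21 libraries with at least 1000000 counts on protein-coding genes (4 actuated, 3 static array, 4 high-intensity, 5 low-intensity and 5 control), called the deeper libraries, carry all results. The other 5 held between 4 and 1112 collagen counts, and low-intensity replicate 6 had only 4, from Col2a1 and Col4a2. Neuronal transcripts were plentiful, with Tubb3 at 399 and Map2 at 440 TPM (transcripts corrected for length and scaled to the same total in every library) on average. Of 7 motor neuron markers looked up, 6 had enough counts to be tested. Mnx1, Isl1, Chat, Slc18a3 and Slc5a7 had counts in every deeper library. Radial glial and astrocyte transcripts were also plentiful (Gfap 865 and Fabp7 806 TPM). In the deeper control libraries the 6 glial markers summed to 1218 TPM on average, the 7 pan-neuronal markers to 918 and the 7 motor neuron markers to 40.7. The order was the same in every group. Such sums depend on the genes chosen and do not count cells. Of 10 fibroblast and mesenchyme markers, 6 had counts in every deeper library, Pdgfra leading at 23.5 TPM. Bulk RNA cannot tell fewer cells of a type from less RNA per cell.

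The sequences before 2 of the most abundant fibrillar genes, and the stretch where 2 type IV genes start, are shown because these genes lead the collagen levels below. They are RefSeq windows of GRCm38.p6, of which 35 of the 44 collagens matched an entry. Col1a2 lies on the plus strand and the 250 bases before its start are chr6:4505368-4505617. Col3a1 also lies on the plus strand, and the 250 bases before its start are chr1:45311288-45311537. Capitals mark the GC box GGGCGG, the promoter element with the letters CCAAT, and the TATA box TATAAA, each searched on both strands.
Col1a2: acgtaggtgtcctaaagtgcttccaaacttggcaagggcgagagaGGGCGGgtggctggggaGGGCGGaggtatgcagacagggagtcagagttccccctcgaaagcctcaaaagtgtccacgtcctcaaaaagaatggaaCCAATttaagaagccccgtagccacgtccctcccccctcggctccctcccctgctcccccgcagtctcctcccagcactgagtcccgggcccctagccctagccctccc
Col3a1: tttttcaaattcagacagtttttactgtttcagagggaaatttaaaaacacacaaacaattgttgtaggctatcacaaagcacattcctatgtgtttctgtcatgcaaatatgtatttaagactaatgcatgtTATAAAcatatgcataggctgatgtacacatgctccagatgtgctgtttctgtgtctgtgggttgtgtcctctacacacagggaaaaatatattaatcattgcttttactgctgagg
Col4a1 (minus strand) and Col4a2 (plus strand) start head to head on chromosome 8, at positions 11312826 and 11312805. The stretch chr8:11312801-11312830, read on the plus strand, holds both starts, and capitals mark the 22 bases that both first exons share on opposite strands.
Col4a1 and Col4a2 starts: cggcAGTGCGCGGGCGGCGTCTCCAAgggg
Col1a2 held 2 GGGCGG matches and 1 CCAAT match in 62.0% GC, and Col3a1 held 1 TATAAA match in 35.2% GC. Over the 250 bases before the start, 21 of the 35 matched collagens (60.0%) held GGGCGG, against 32.9% of 27025 genes. These outnumber the 21606 protein-coding genes of the count table, so they may include genes that, unlike the collagens, are not protein coding. CCAAT was found in 12 of 35 (34.3%, against 34.5%) and TATAAA in 5 of 35 (14.3%, against 13%). The median GC content was 59.6% for the collagens and 52.0% for all genes, and a match of letters is a description and no proof of a binding site.

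Type IV and type I collagen genes made up most of the collagen RNA. Col4a1, a chain of the main basement membrane network, had the highest mean at 112 ± 92.2 TPM (SD, n = 21 deeper libraries), and Col4a2, its partner chain, followed at 83.3 ± 62.6 TPM. TPM is corrected for length, so levels of different genes can be set beside each other, but TPM per count varied between libraries. Col18a1 had 175 counts and 5.29 TPM in control replicate 1, and 179 counts and 18.3 TPM in control replicate 2. Col1a1, the main chain of type I collagen fibrils, stood at 67.3 ± 81.2 TPM. Col3a1, the type III chain of soft tissue fibrils, stood at 56.4 ± 50.2 TPM and Col1a2, the second type I chain, at 39.2 ± 42.2 TPM. The SD of each of these 5 genes exceeded the step to the next. That SD spans libraries and groups, so it does not measure whether the order held within a library. Within libraries the TPM ratio of Col4a1 to Col4a2 had a median of 1.25 (0.891 to 2.73). The ratio of Col1a1 to Col1a2 had a median of 1.82 (0.492 to 2.61), so neither order held in every library.

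Below them came Col12a1, a fibril-associated collagen, at 27.4 ± 11.2 TPM, Col16a1, another one, at 21.5 ± 15.7 TPM and Col18a1, the precursor of endostatin, at 20.3 ± 10.5 TPM. Col26a1 was at 9.95 ± 5.74 TPM. A median of at least 1 TPM over the deeper libraries was reached by 29 of the 44 genes: 6 of 8 basement membrane, 9 of 11 fibrillar and 14 of 25 other collagens. At a limit of 0.1 TPM the number was 39, and at 5 TPM it was 18. The genes with a mean under 0.5 TPM included Col10a1, the marker of hypertrophic cartilage, Col17a1 of skin hemidesmosomes, and Col4a3 and Col4a4, the chains that join Col4a5 in the kidney. Col2a1, the collagen of cartilage, was at 1.67 ± 0.851 TPM. On average, 40.6% of the collagen TPM of a library came from basement membrane, 32.8% from fibrillar and 26.6% from other collagens.

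**Figure D1:**
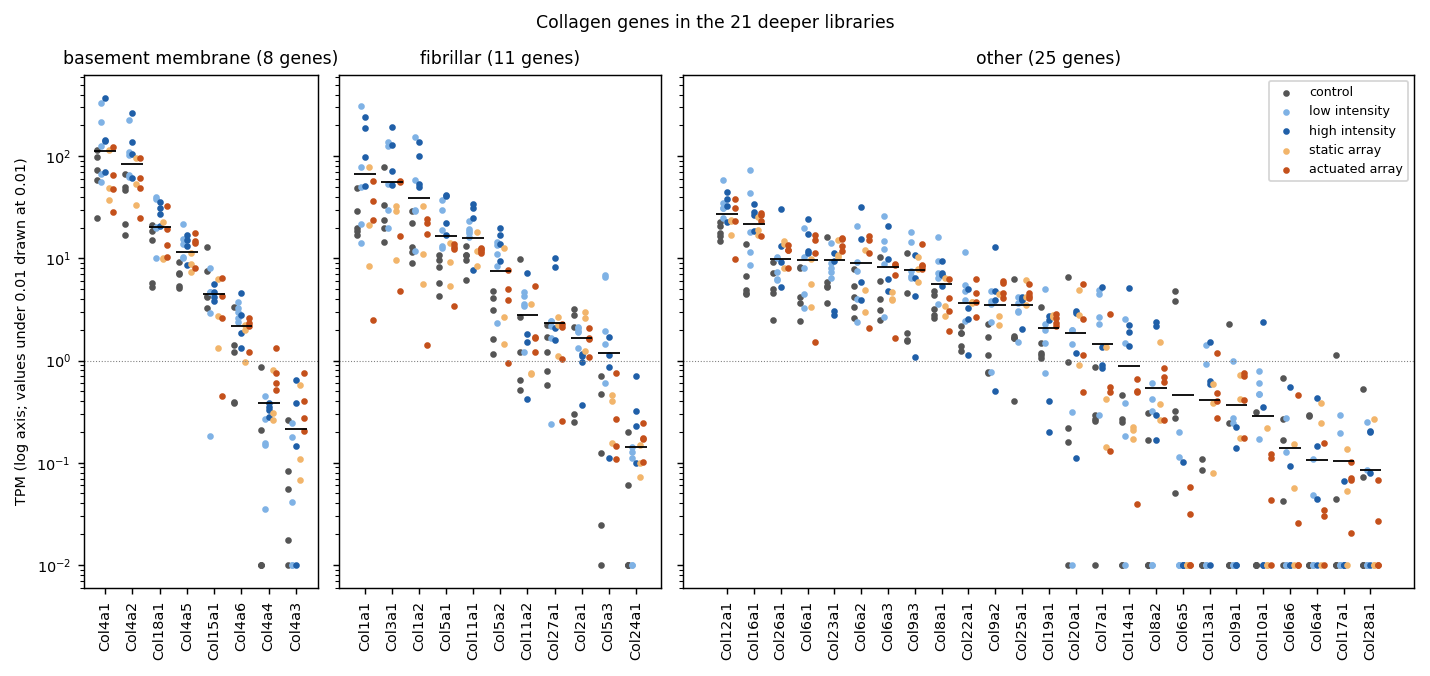
Transcript level (TPM, log axis) of each of the 44 collagen genes by class in the 21 deeper libraries. Points are libraries coloured by group, short lines are means, and the dotted line is 1 TPM; Col4a1 and Col4a2 lead, and Col1a1 spans from 2.48 to 309 TPM.

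The summed levels of the classes differed most for the fibrillar collagens, which were highest in the high-intensity group. Their summed TPM was 422 ± 210 (SD, n = 4) in high-intensity, 287 ± 238 (n = 5) in low-intensity, 104 ± 45.3 (n = 5) in control, 110.5 ± 76.5 (n = 3) in static array and 113 ± 66.8 (n = 4) in actuated libraries. The lowest high-intensity library (219 TPM) lay above the highest control library (178 TPM). Low-intensity libraries ranged from 100.4 to 686 TPM and overlapped every other group. For the basement membrane class the sums were 374 ± 217, 319 ± 192, 142 ± 60.7, 156 ± 81.9 and 163 ± 85.6 TPM in the same order of groups, and the high-intensity range (178 to 684) overlapped that of the controls (55.9 to 211). The other collagens summed to 159 ± 51.8, 155 ± 36.1, 73.5 ± 13.8, 115 ± 20.7 and 139 ± 28.7 TPM.

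These TPM sums carry a shift of the whole table. Protein-coding genes took on average 372843 TPM of each library's total in the controls and between 522238 and 600580.5 in the other groups, and over all fitted genes the median difference in log2(TPM + 1) from the controls was 0.53 for high intensity, 0.64 for low intensity and 0.50 for the static array. Counts scaled to library size by TMM (CPM below) had medians over all genes between -0.01 and 0.01, and are used for all comparisons between groups. On that scale the fibrillar sum was 1869.6 ± 840.2 in high-intensity, 1179.6 ± 981 in low-intensity and 642 ± 276 CPM in control libraries. The high-intensity range of fibrillar sums, 1007 to 2783 CPM, then overlapped the control range of 438 to 1103 CPM. The basement membrane sum was 1096.5 ± 481 in high-intensity, 802 ± 425 in low-intensity, 549.9 ± 138 in control, 523 ± 295 in static array and 507 ± 252 CPM in actuated libraries, so that the low-intensity mean was 1.46 times the control mean in CPM, less than in TPM. The control sum of the other collagens was 534 ± 97.9 CPM against 506 ± 75.6 in static array libraries, so that their ratio of 1.57 in TPM became 0.947 in CPM.

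**Figure D2:**
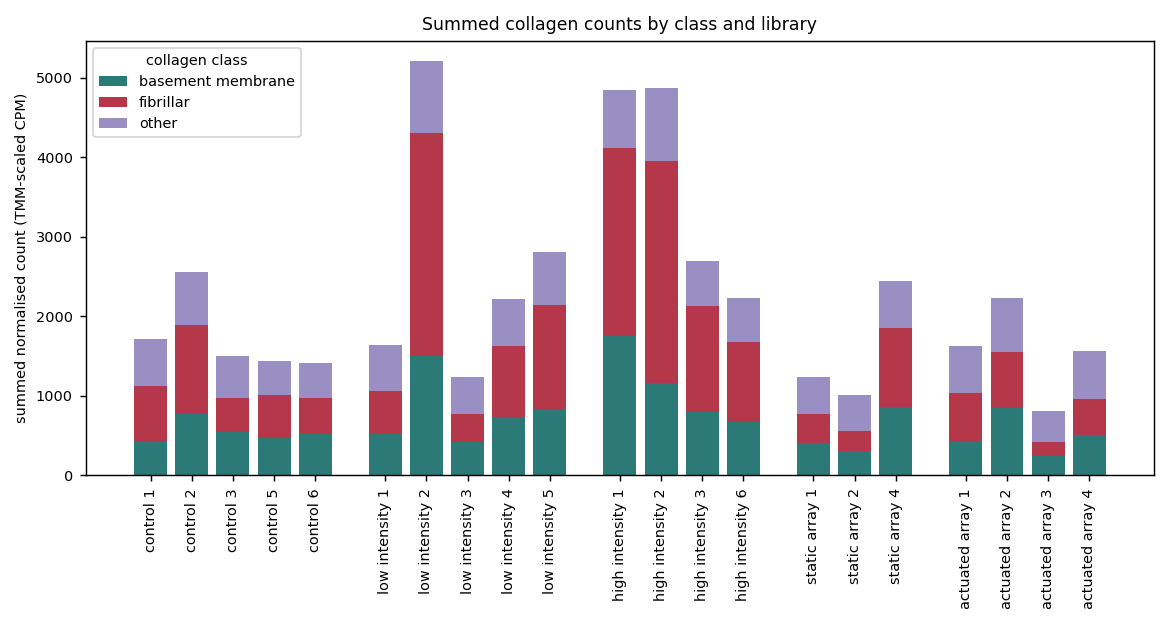
Summed CPM (TMM-scaled counts) of the collagen genes in each of the 21 deeper libraries, stacked by class. High-intensity replicates 1 and 2 and low-intensity replicate 2 have the tallest bars, and actuated replicate 3 the shortest.

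High intensity against control gave the most collagen genes with an unadjusted p under 0.05, and none passed the adjusted threshold. Of the 44 collagens, 35 had enough counts to be fitted (8 basement membrane, 10 fibrillar, 17 other), and 9 did not: Col6a4, Col6a5, Col6a6, Col9a1, Col10a1, Col13a1, Col17a1, Col24a1 and Col28a1. By edgeR's quasi-likelihood test with Benjamini-Hochberg adjustment over 14730 genes, 0 of 35 had an adjusted p under 0.05, where 68 genes in all did (0.462%). At an unadjusted p under 0.05 there were 14 of 35, all higher in high-intensity libraries, where 15.9% of all genes had such a p (8.67% higher and 7.28% lower). By class they were 7 of 10 fibrillar, 4 of 8 basement membrane and 3 of 17 other collagens. The median log2 fold change was 1.52 for fibrillar, 1.08 for basement membrane and 0.48 for other collagens, and 0.00 for all genes. Over all 35 the log2 fold changes ran from -0.87 to 3.36, with 28 above 0. Collagens of 1 library share its cells, so their p-values are not independent of one another.

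The fibrillar genes of types I, III and V were among these. Here and below, values are listed by replicate number, which for the deeper libraries is 1, 2, 3 and 6 in high-intensity, 1 to 5 in low-intensity, 1, 2, 3, 5 and 6 in control, 1, 2 and 4 in static array and 1 to 4 in actuated libraries. Col1a1 measured 987, 1055, 343 and 383 CPM in the high-intensity libraries and 206, 423, 120.0, 185 and 143 CPM in the control libraries. Col1a1 in control replicate 2 exceeded its values in high-intensity replicates 3 and 6, so the groups overlapped, and the log2 fold change of Col1a1 was 1.68 ± 0.71 (SE; adjusted p = 0.241). Col1a2 was at 517, 495, 300.1 and 171 CPM in the high-intensity libraries and at 107, 173, 82.3, 72.5 and 49.6 CPM in the control libraries. Here only control replicate 2 reached the lowest high-intensity library, and the log2 fold change of Col1a2 was 1.93 ± 0.61 (SE; adjusted p = 0.119). Col3a1 reached 349, 707, 330.3 and 193 CPM in the high-intensity libraries and 151, 234, 85.4, 106 and 103 CPM in the control libraries. The Col3a1 groups overlapped in the same way, with a log2 fold change of 1.53 ± 0.60 (SE; adjusted p = 0.200). Col5a2 codes for a type V chain that is built into type I fibrils and limits their width. Col5a2 stood at 97.6, 109, 104 and 41.3 CPM in the high-intensity libraries and at 20.4, 40.0, 9.23, 34.2 and 24.9 CPM in the control libraries. All 4 high-intensity libraries were above all 5 controls, with a log2 fold change of 1.77 ± 0.52 (SE; adjusted p = 0.101), and without high-intensity replicate 6 the adjusted p of Col5a2 was 0.0451. This was the 1 of 21 fits with 1 deeper library left out that called Col5a2, and the highest adjusted p in those fits was 0.269. Col5a1, Col11a1 and Col27a1 were the other 3 fibrillar genes with an unadjusted p under 0.05, with log2 fold changes of 1.18, 0.74 and 1.65. Col2a1 and Col11a2, which form cartilage fibrils together with Col11a1, stood at -0.56 and -0.30, so the genes of cartilage fibrils went both ways.

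In the basement membrane class, Col18a1 had the smallest p of all collagens. Col18a1 measured 81, 131, 114 and 119 CPM in the high-intensity libraries and 50.3, 62.7, 44.2, 30.9 and 49.8 CPM in the control libraries. No high-intensity library was as low as any control, and the log2 fold change was 1.21 ± 0.34 (SE; adjusted p = 0.0895). Col4a1 was at 951, 546, 350.3 and 262 CPM in the high-intensity libraries and at 173, 382, 218, 189 and 227 CPM in the control libraries. Col4a2 reached 595, 373, 245 and 201 CPM in the high-intensity libraries and 123, 234, 176, 149.7 and 171 CPM in the control libraries. In both type IV genes control replicate 2 lay within the high-intensity range, and the log2 fold changes were 1.15 ± 0.46 (SE; adjusted p = 0.213) for Col4a1 and 1.05 ± 0.35 (SE; adjusted p = 0.138) for Col4a2. Col15a1 stood at 15.1, 20.7, 8.18 and 19.3 CPM in the high-intensity libraries and at 31.9, 32.6, 45.4, 23.9 and 11.3 CPM in the control libraries. The groups overlapped. Col15a1, a multiplexin like Col18a1, had a log2 fold change of -0.87 ± 0.55 (SE; adjusted p = 0.471).

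Of the remaining classes, Col14a1, a fibril-associated collagen of dense connective tissue, had low counts. Col14a1 measured 6.05, 32, 16.4 and 7.44 CPM in the high-intensity libraries and 0, 3.85, 0, 1.87 and 1.74 CPM in the control libraries. Every high-intensity library was above every control, and the log2 fold change of 3.36 ± 0.98 (SE; adjusted p = 0.101) rests on controls at or near 0. A count of 0 allows up to 0.863 and 1.15 CPM in control replicates 1 and 3 (3 counts on the same scale, counting error only). Col8a2 was at 7.82, 8.92, 0.818 and 0.826 CPM in the high-intensity libraries and at 0, 0, 0, 1.40 and 0.869 CPM in the control libraries. Col8a2, a short-chain collagen of the corneal membrane, was high in 2 of the 4 libraries, with 3.35 ± 1.09 (SE; adjusted p = 0.127). Col16a1 reached 52.5, 39.3, 46.6 and 52.6 CPM in the high-intensity libraries and 39.7, 43.5, 30.0, 20.1 and 24.9 CPM in the control libraries. In Col16a1, 2 control libraries lay above the lowest high-intensity one, with 0.59 ± 0.21 (SE; adjusted p = 0.159). Groups that did not overlap were found for 3 of 35 collagens, Col18a1, Col5a2 and Col14a1, all higher, against 2.07% of all genes higher in this way.

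The calls depended on the analysis. DESeq2 called Col14a1 and Col8a2 (and 3.17% of all genes), and limma voom with quality weights called 0. A fit of the high-intensity and control groups alone called Col18a1 and Col1a2 of 31 collagens tested (0.13% of all genes). A fit without the low-count filter called 12 of 44 (1.88% of 37248 genes). It keeps genes with next to no counts, which enter both its estimate of spread and its share over all genes. Here and below, neither its calls nor that share are on a par with those of the other fits. Leaving out each deeper library in turn, the number with an unadjusted p under 0.05 was between 9 (high-intensity replicate 1 left out, 8 higher and 1 lower) and 17 (static array replicate 4 left out, 16 higher and 1 lower), and with all 26 libraries it was 13 of 36 (7.04% of all genes). Marker genes of other cell types were read in the same libraries, where 8.67% of all genes were higher and 7.28% lower at an unadjusted p under 0.05. The summed CPM of the 10 fibroblast and mesenchyme markers was 275 to 364 in high-intensity and 133 to 208 in control libraries, and 4 of the 9 fitted had an unadjusted p under 0.05, all higher. The 10 skeletal muscle markers summed to 18.7 to 174 CPM against 8.46 to 72.1, nearly all of it Des, while Myog and Ckm had 0 counts in 18 of the 21 libraries. Of 7 pan-neuronal markers, 4 were lower in high-intensity libraries at an unadjusted p under 0.05, with sums of 2110.1 to 3167 against 3017 to 3261 CPM. Of the 5 Schwann cell and neural crest markers, 2 of 4 fitted were higher, with sums of 46.6 to 128 against 30.4 to 60.4 CPM. Endothelial (7 genes), extraembryonic endoderm (7) and pluripotent (4) markers summed to at most 34.8, 48.9 and 7.57 CPM in any deeper library, and cartilage markers (5) to between 129.7 and 245 CPM. Their part in the collagen values was not tested.

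**Figure D3:**
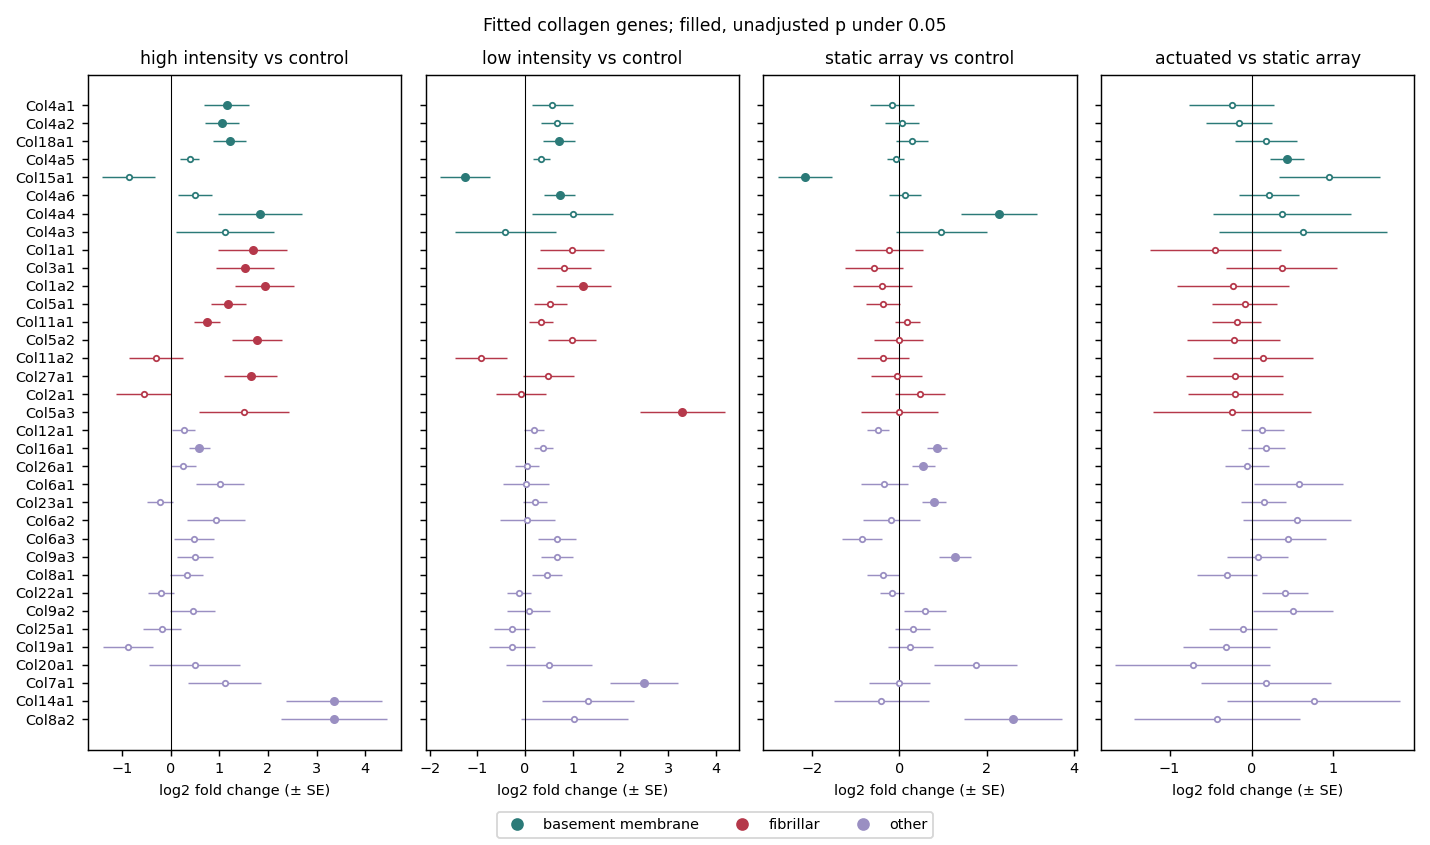
Log2 fold change (± SE) of the 35 fitted collagen genes in 4 comparisons, ordered by class and mean TPM. Filled points have an unadjusted p under 0.05 (14, 6, 7 and 1 genes from left to right); no gene had an adjusted p under 0.05.

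The comparisons of low intensity, high intensity and static array with control share the control libraries, so their values are not independent. In low intensity against control, the 2 collagens of smallest p, Col5a3 and Col7a1, were genes of low abundance. No collagen had an adjusted p under 0.05, where 88 of 14730 genes did (0.597%). At an unadjusted p under 0.05 there were 6 of 35, 5 of them higher, against 15.2% of all genes (8.57% higher and 6.61% lower). The median log2 fold change was 0.68 for fibrillar, 0.62 for basement membrane and 0.21 for other collagens, and -0.01 for all genes, and 28 of the 35 were above 0. Col5a3, a type V chain of narrow expression, had the smallest p. Col5a3 stood at 28.5, 8.61, 2.73, 4.43 and 40.1 CPM in the low-intensity libraries and at 0.288, 0.701, 0, 4.68 and 3.19 CPM in the control libraries. The spread of Col5a3 within the low-intensity group was wide and the 2 groups overlapped, with a log2 fold change of 3.30 ± 0.88 (SE; adjusted p = 0.0641). Col7a1 makes the anchoring fibrils beneath the epidermis. Col7a1 measured 35.7, 18, 2.04, 11.4 and 39.5 CPM in the low-intensity libraries and 5.18, 1.05, 9.61, 0 and 2.90 CPM in the control libraries. Low-intensity replicate 3 lay below 3 of the 5 controls, and the log2 fold change of Col7a1 was 2.49 ± 0.71 (SE; adjusted p = 0.0846). Without low-intensity replicate 3, both genes had an adjusted p under 0.05, at 0.0370 for Col5a3 and 0.0324 for Col7a1. For each gene this was 1 of 21 fits with 1 deeper library left out. The highest adjusted p in those fits was 0.202 for Col5a3 and 0.219 for Col7a1.

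Among the low-intensity libraries, replicate 2 had the highest values of the abundant collagens. Col1a1 was at 65.8, 1332, 95, 366 and 279.9 CPM in the low-intensity libraries. Replicate 2 held more than 3 times the next value, and the log2 fold change of Col1a1 against control, 0.99 ± 0.68 (SE; adjusted p = 0.529), became -0.11 without it. Col1a2 reached 113, 576, 45, 112 and 285 CPM in the low-intensity libraries. Col3a1 stood at 86, 508, 59.6, 156 and 395 CPM in the low-intensity libraries. Col1a2 and Col3a1 were high in replicates 2 and 5, with log2 fold changes of 1.22 ± 0.58 (SE; adjusted p = 0.320) and 0.82 ± 0.57 (SE; adjusted p = 0.532). Col4a1 measured 198, 752, 149.9, 305 and 367 CPM in the low-intensity libraries. Col4a2 was at 168, 519, 156, 259 and 259.5 CPM in the low-intensity libraries. Replicate 2 was again the highest, and the fold changes were 0.57 ± 0.44 (SE; adjusted p = 0.578) and 0.67 ± 0.34 (SE; adjusted p = 0.349). Col18a1 reached 58.9, 109, 37.5, 79 and 107 CPM in the low-intensity libraries. Col18a1 overlapped the controls in replicates 1 and 3, with 0.71 ± 0.33 (SE; adjusted p = 0.306). Col12a1 stood at 243, 476, 248, 299 and 262 CPM in the low-intensity libraries and at 299, 302, 284, 229 and 226 CPM in the control libraries. Col12a1 did not separate the groups, with 0.19 ± 0.22 (SE; adjusted p = 0.738).

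Col5a2 measured 43.2, 67, 11.6, 45.5 and 86 CPM in the low-intensity libraries. Col15a1 was at 8.58, 10.9, 0.681, 19 and 22.4 CPM in the low-intensity libraries. Low-intensity Col5a2 overlapped the controls, and Col15a1 was the 1 collagen lower than control at an unadjusted p under 0.05, with -1.26 ± 0.53 (SE; adjusted p = 0.245). DESeq2 called Col5a3 and Col7a1 (3.26% of all genes), limma voom called 0, and the fit without the low-count filter called 12 of 44 (1.77% of all genes). With all 26 libraries 4 of 36 collagens had an unadjusted p under 0.05 (5.23% of all genes). Leaving out each deeper library in turn, the number was between 3 (control replicate 3 left out, 3 higher and 0 lower) and 11 (low-intensity replicate 3 left out, 11 higher and 0 lower). Over all genes the share in those fits was between 12.2% and 16.7%. The fibroblast and mesenchyme markers summed to 120 to 407 CPM in the low-intensity libraries, and 2 of 9 had an unadjusted p under 0.05, both higher. Of all genes, 8.57% were higher and 6.61% lower at that limit. Of the pan-neuronal markers 3 were lower at that limit, 1 of them at an adjusted p under 0.05, with sums of 2425 to 3197 CPM.

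High against low intensity gave no call. By edgeR, no collagen and no other gene had an adjusted p under 0.05 (0%). At an unadjusted p under 0.05 there were 4 of 35 collagens, against 7.68% of all genes (3.62% higher and 4.06% lower): Col8a2, Col14a1 and Col27a1 were higher in high intensity and Col5a3 was lower. Col8a2 reached 1.38, 1.87, 1.02, 0 and 0 CPM in the low-intensity libraries. Compared with the high-intensity values above, the groups overlapped, with a log2 fold change of 2.32 ± 1.01 (SE; adjusted p = 0.612). Col14a1 stood at 0.277, 12, 0, 4.43 and 2.38 CPM in the low-intensity libraries. Low-intensity replicate 2 lay within the high-intensity range of Col14a1, with 2.03 ± 0.92 (SE; adjusted p = 0.612). Col5a3 measured 5.30, 0.405, 11.9 and 2.20 CPM in the high-intensity libraries. Col7a1 was at 6.05, 8.11, 13.9 and 5.23 CPM in the high-intensity libraries. Both genes overlapped between the groups, and for Col5a3 the log2 fold change was -1.80 ± 0.86 (SE; adjusted p = 0.645). DESeq2 and limma voom called 0 collagens, and the fit without the low-count filter called 8 of 44 (0.338% of all genes). With 1 deeper library left out, the number of collagens with an unadjusted p under 0.05 was between 0 (high-intensity replicate 2 left out) and 11 (low-intensity replicate 2 left out, 10 higher and 1 lower). Over all genes the share in those fits was between 6.11% and 9.37%.

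Moving the array changed no collagen past the threshold. Of 35 collagens 0 had an adjusted p under 0.05, as had 0 of all genes (0%), and 1 had an unadjusted p under 0.05 (0.38% of all genes did, 0.17% higher and 0.21% lower). It was Col4a5, a type IV chain that is X-linked. A share of 0.38% is below what a limit of 0.05 gives when nothing changes, so this fit was conservative here. In a fit of the array groups alone, 2.75% of all genes and 1 of 36 collagens had such a p. The lack of calls therefore does not show that moving the array had no effect. Col4a5 reached 64.9, 81, 50.7 and 80.2 CPM in the actuated libraries and 43.6, 46.5 and 63.5 CPM in the static array libraries. Static array replicate 4 lay above actuated replicate 3, so the groups overlapped, and the log2 fold change was 0.44 ± 0.21 (SE; adjusted p = 1.00). Col15a1 stood at 15.7, 20.8, 2.10 and 11.6 CPM in the actuated libraries and at 4.98, 6.92 and 7.52 CPM in the static array libraries. Col15a1 ranked next, with actuated replicate 3 below all static libraries and 0.95 ± 0.62 (SE; adjusted p = 1.00); on the log2(TPM + 1) scale the difference of Col15a1 was -0.07. The medians of the classes were -0.20 for fibrillar, 0.29 for basement membrane and 0.15 for other collagens.

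The array groups overlapped in the abundant collagens. Col1a1 measured 149, 249, 14.6 and 122 CPM in the actuated libraries and 97.6, 50.2 and 399.9 CPM in the static array libraries. Col1a2 was at 79.1, 93.1, 7.28 and 75 CPM in the actuated libraries and at 46.1, 28.4 and 149 CPM in the static array libraries. Col3a1 reached 198, 179, 11.4 and 80.5 CPM in the actuated libraries and 54.7, 54.3 and 164 CPM in the static array libraries. Actuated replicate 3 was the lowest of all 21 deeper libraries in each of Col1a1, Col1a2 and Col3a1, and static array replicate 4 was the highest of its group. Col4a1 stood at 145, 338, 67.8 and 169 CPM in the actuated libraries and at 158, 89.1 and 391 CPM in the static array libraries. Col4a2 measured 147, 259, 78.2 and 158 CPM in the actuated libraries and 152, 106 and 279 CPM in the static array libraries. Col18a1 was at 47.5, 120.3, 28.3 and 67.7 CPM in the actuated libraries and at 38.1, 42.3 and 95.9 CPM in the static array libraries. The same 2 libraries marked the ends of the array libraries in Col4a1 and Col4a2, and in Col18a1 the highest was actuated replicate 2. Col5a2 was likewise highest in static array replicate 4. Col5a2 reached 23.8, 37.1, 6.18 and 20.5 CPM in the actuated libraries and 14, 9.67 and 53.5 CPM in the static array libraries. The log2 fold change between the array groups was -0.45 ± 0.80 (SE; adjusted p = 1.00) for Col1a1 and -0.24 ± 0.52 (SE; adjusted p = 1.00) for Col4a1, each smaller than its SE. Col12a1 stood at 232, 304, 97.8 and 203 CPM in the actuated libraries and at 188, 182 and 204 CPM in the static array libraries. Col26a1 measured 25.1, 19.7, 20.7 and 25.8 CPM in the actuated libraries and 16.7, 26.9 and 27.4 CPM in the static array libraries. Col12a1 and Col26a1 overlapped too. DESeq2, limma voom and the fit without the low-count filter called 0 collagens here, and with 1 deeper library left out, the number with an unadjusted p under 0.05 was between 0 (13 of the 21 libraries in turn left out) and 3 (actuated replicate 3 left out, 3 higher and 0 lower). Over all genes the share in those fits was between 0.286% and 0.656%.

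The static array against control compared cultures that differ in the array and belong to 2 arms of the study with different depth, which cannot be told apart. No collagen had an adjusted p under 0.05, where 105 of 14730 genes did (0.713%). At an unadjusted p under 0.05 there were 7 of 35, against 12.6% of all genes (6.1% higher and 6.46% lower), 6 higher (Col16a1, Col9a3, Col23a1, Col4a4, Col8a2 and Col26a1) and 1 lower (Col15a1), and 0 of 10 fibrillar genes. Col16a1 was at 51.4, 53.5 and 68.9 CPM in the static array libraries and at 54.7, 53.1, 75.6 and 79.3 CPM in the actuated libraries. Against the control values above, all 3 static libraries were higher, with a log2 fold change of 0.86 ± 0.22 (SE; adjusted p = 0.0611). Col9a3 is a chain of type IX collagen, which coats cartilage fibrils and is also made in neural tissue. Col9a3 reached 16.6, 16 and 19.7 CPM in the static array libraries and 9.78, 6.31, 6.15, 4.68 and 8.40 CPM in the control libraries. The static libraries were all higher, with 1.28 ± 0.37 (SE; adjusted p = 0.106). Col9a3 stood at 21, 15.4, 18 and 19.2 CPM in the actuated libraries, 14.6, 2.84, 13.5 and 9.09 CPM in the high-intensity libraries and 15.8, 9.36, 17, 7.59 and 6.46 CPM in the low-intensity libraries. The actuated libraries lay in the static range or just around it, and both intensity groups overlapped the controls. Col26a1 measured 19, 9.81, 14.2, 16.4 and 21.2 CPM in the control libraries. The groups overlapped, with 0.55 ± 0.26 (SE; adjusted p = 0.393). Col15a1 was lower in all 3 static libraries than in any control, with -2.16 ± 0.63 (SE; adjusted p = 0.111).

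In all, 6 of 35 collagens did not overlap between static array and control, against 8.14% of all genes (4.52% higher and 3.62% lower): Col9a3, Col16a1 and Col23a1 were higher, and Col6a3, Col12a1 and Col15a1 lower. Leaving out control replicate 2 or low-intensity replicate 1 brought Col16a1 under the adjusted threshold (0.0303 and 0.0488), and leaving out high-intensity replicate 2 did so for Col9a3 (0.0467). These were 2 of 21 such fits for Col16a1 and 1 of 21 for Col9a3. The highest adjusted p in the 21 fits was 0.339 for Col16a1 and 0.397 for Col9a3. DESeq2 called Col16a1 and Col9a3 (2.59% of all genes), limma voom called Col16a1 (1.03%), the fit of these groups alone called Col15a1 of 30 tested (0.315% of all genes), and the fit without the low-count filter called 4 of 44 (1.23%). With 1 deeper library left out, the number with an unadjusted p under 0.05 was between 5 (static array replicate 4, control replicate 3 or high-intensity replicate 1 left out) and 9 (static array replicate 1 left out, 7 higher and 2 lower). Over all genes the share in those fits was between 8.29% and 14.5%. Schwann cell and neural crest markers summed to 89.1 to 246 CPM in static array and 30.4 to 60.4 CPM in control libraries (2 of 4 fitted markers higher at an unadjusted p under 0.05). Of all genes, 6.1% were higher and 6.46% lower at that limit. Radial glial and astrocyte markers summed to 3445 to 4187 against 2197 to 3065 CPM (4 of 6 higher). Motor neuron markers summed to 73.7 to 89.1 against 105 to 162 CPM (3 of 6 lower, 1 of them at an adjusted p under 0.05). Their part in the Col9a3 and Col16a1 values was not tested.

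Whether actuation and high intensity had unequal effects was tested as an interaction. No gene had an adjusted p under 0.05 (0%), and 8 of 35 collagens had an unadjusted p under 0.05, against 6.69% of all genes (2.96% positive and 3.73% negative). Of these, 7 were negative, that is, the log2 fold change of actuation lay below that of high intensity: Col1a2, Col4a2, Col5a1, Col5a2, Col8a2, Col11a1 and Col27a1. Col15a1 was positive. Col5a2 had -1.99 ± 0.76 (SE; adjusted p = 0.668) and Col8a2 -3.78 ± 1.49 (SE; adjusted p = 0.681) on the log2 scale. Col8a2 was at 2.09, 2.63, 1.10 and 2.32 CPM in the actuated libraries and at 1.24, 1.12 and 5.92 CPM in the static array libraries. DESeq2 and limma voom called 0 collagens, and the fit without the low-count filter called 10 of 44 (0.66% of all genes). With 1 deeper library left out, the number with an unadjusted p under 0.05 was between 2 (static array replicate 4 left out, 2 higher and 0 lower) and 12 (control replicate 2 left out, 1 higher and 11 lower), so none of the negative ones was left without static array replicate 4. Over all genes the share in those fits was between 3.73% and 9.26%. Of the fibroblast and mesenchyme markers 2 of 9 fitted were negative at that limit (median -0.56), of the skeletal muscle markers 1 of 4 and of the extraembryonic endoderm markers 1 of 3, and of the motor neuron markers 2 of 6 were positive (median 0.80). Their part in the interaction values was not tested.

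Col12a1 reached 378, 401, 271 and 239.7 CPM in the high-intensity libraries. Col26a1 stood at 15.9, 28.8, 13.5 and 19.3 CPM in the high-intensity libraries and at 21.3, 13.1, 19.1, 13.3 and 15.6 CPM in the low-intensity libraries. Col16a1 measured 55.9, 40.1, 31, 34.1 and 44.6 CPM in the low-intensity libraries. These 3 genes and Col4a5 spanned a narrower range than Col4a1 and Col1a1: over the 21 deeper libraries, the highest CPM was 4.86 times the lowest for Col12a1, 3.94 times for Col16a1 and 2.93 times for Col26a1, against 14 times for Col4a1 and 91.4 times for Col1a1. Col4a5 was at 83.5, 81.5, 63.8 and 55.6 CPM in the high-intensity libraries, 70.3, 96.3, 61.3, 51.2 and 63.9 CPM in the low-intensity libraries and 53.2, 67.3, 40.4, 59.9 and 50.7 CPM in the control libraries. The highest value of Col4a5 was 2.38 times the lowest. Col5a3 reached 1.17, 3.38, 0.662 and 0.489 CPM in the actuated libraries and 1.92, 2.31 and 0.863 CPM in the static array libraries. Col7a1 stood at 3.65, 8.17, 1.21 and 4.03 CPM in the actuated libraries and at 3.05, 1.34 and 7.15 CPM in the static array libraries. Col14a1 measured 2.74, 2.16, 0.221 and 2.44 CPM in the actuated libraries and 1.13, 0.967 and 1.23 CPM in the static array libraries. These 3 genes of low abundance stayed under 10 CPM in all 7 array libraries.

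Pairs of chains that join in 1 molecule were compared as ratios. In TPM, the SD of the log2 ratio of Col4a1 to Col4a2 over the deeper libraries was 0.41, against 1.04 for Col4a1 alone. For Col1a1 to Col1a2 it was 0.66 against 1.64, and for Col6a1 to Col6a2 0.51 against 1.06. A shift of all TPM in a library widens the SD of a single gene and cancels in a ratio. Part of the difference is therefore fixed by the unit, and such a shift also adds to the TPM correlations below. Within groups this did not always hold: in the controls the SD was 0.83 for the ratio of Col1a1 to Col1a2 against 0.63 for Col1a1 and 0.70 for Col1a2, and in high-intensity libraries 0.84 for Col6a1 to Col6a2 against 0.52 for Col6a1. Chains of different molecules also moved together, so such tracking was not particular to partners. The rank correlation of TPM over the deeper libraries was 0.91 for Col4a1 with Col4a2 and 0.83 for Col1a1 with Col1a2. It was 0.87 for Col1a2 with Col4a1 and 0.89 for Col1a2 with Col5a1. Not all pairs moved together: it was -0.21 for Col4a1 with Col23a1 and -0.33 for Col4a1 with Col2a1. Col4a1 and Col4a2, whose protein chains combine 2 to 1, spanned 67.8 to 951 and 78.2 to 595 CPM, while the ratio of their counts stayed between 0.841 and 1.64 in all 21 deeper libraries (median 1.30). By group the count ratio ran from 1.24 to 1.64 in control, 1.30 to 1.60 in high-intensity, 0.963 to 1.45 in low-intensity, 0.841 to 1.40 in static array and 0.866 to 1.31 in actuated libraries. In TPM the control ratios of Col4a1 to Col4a2 were 1.46 to 2.73, above all high-intensity (1.04 to 1.40), static array (0.898 to 1.20) and actuated ratios (0.969 to 1.27), while the low-intensity ratios (0.891 to 1.97) overlapped those of the controls. In counts the control and high-intensity ratios overlapped throughout, so the separation of controls from high intensity depended on the unit. The count ratio of Col1a1 to Col1a2, which also join 2 to 1, ran from 0.585 to 3.27, the lowest in low-intensity replicate 1. Col6a1 and Col6a2, 2 chains of the beaded filaments of type VI collagen, had count ratios between 0.596 and 2.82.

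**Figure D4:**
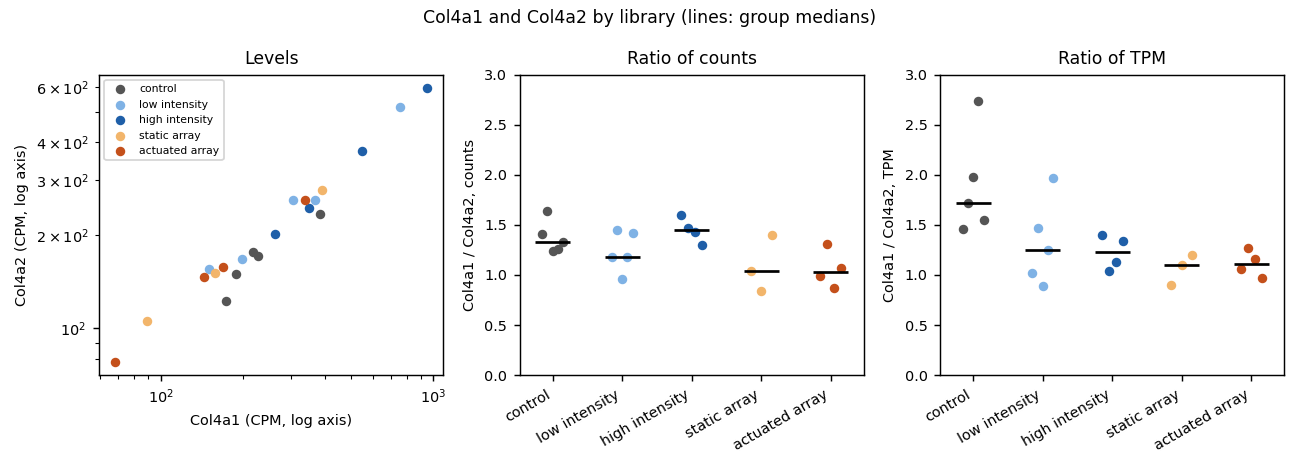
Col4a1 and Col4a2 in the 21 deeper libraries: CPM of both genes on log axes, the ratio of their counts, and the ratio of their TPM by group, with lines at group medians. Count ratios stay between 0.841 and 1.64, and in TPM the control ratios (1.46 to 2.73) lie above the high-intensity ones.

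Among genes that modify and fold collagen chains, Serpinh1 and P4ha1 passed the adjusted threshold, each in 1 comparison. Of 20 genes for modification and folding, Ppib (269.6 TPM on average), a prolyl isomerase, P4hb (166 TPM), a subunit of prolyl 4-hydroxylase, and Serpinh1 (84.5 TPM), the collagen chaperone HSP47, were the most abundant. In high intensity against control 1 of 20, Serpinh1, was higher at an adjusted p under 0.05, and 6 of 20 were higher and 0 lower at an unadjusted p under 0.05, with a median log2 fold change of 0.29 (0.00 for all genes). Of all genes, 0.462% had such an adjusted p, and 8.67% were higher and 7.28% lower at the unadjusted limit. Serpinh1 was at 248, 242, 223 and 127 CPM in the high-intensity libraries and at 94.9, 123, 85, 77.2 and 92.7 CPM in the control libraries. All 4 high-intensity libraries were above all 5 controls, and the log2 fold change of Serpinh1 was 1.15 ± 0.26 (SE; adjusted p = 0.0468). Serpinh1 reached 170.1, 310.5, 94.4, 159 and 209.8 CPM in the low-intensity libraries. Serpinh1 in low intensity overlapped the controls, with 1.00 ± 0.25 (SE; adjusted p = 0.0590). P4ha1 stood at 85.1, 92.3 and 145 CPM in the static array libraries and at 72.2, 75, 30.4, 56.1 and 35.1 CPM in the control libraries. P4ha1, a catalytic subunit of prolyl 4-hydroxylase, was higher in all 3 static array libraries than in any control. It was the 1 of 20 called there (0.713% of all genes were), with 1.00 ± 0.23 (SE; adjusted p = 0.0394). Serpinh1 measured 113, 176, 104 and 126 CPM in the actuated libraries and 109, 106 and 212 CPM in the static array libraries. P4ha1 was at 94, 91.5, 111 and 140.1 CPM in the actuated libraries. Neither gene separated the 2 array groups.

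Of 13 genes for procollagen cleavage and cross-linking, Loxl2 (34.4 TPM), a lysyl oxidase, Bmp1 (20.2 TPM), which trims the C-propeptide, and Pcolce (7.29 TPM), the enhancer of that trimming, are named. Pcolce reached 10.1, 16.6, 40.1 and 4.41 CPM in the high-intensity libraries and 2.30, 0.701, 0.385, 2.34 and 3.48 CPM in the control libraries. Pcolce stood at 12.2, 15.4, 3.41, 8.85 and 32 CPM in the low-intensity libraries. All 4 high-intensity libraries were above all 5 controls in Pcolce, and low-intensity replicate 3 overlapped them. Pcolce rose in both intensity groups, with log2 fold changes of 3.21 ± 0.69 (SE; adjusted p = 0.0435) in high and 2.93 ± 0.67 (SE; adjusted p = 0.0420) in low intensity. It was the 1 of 13 called in each of these comparisons, and 6 of 13 were higher and 0 lower at an unadjusted p under 0.05 in high intensity, and 5 higher and 1 lower in low intensity. Of all genes, 0.462% were called in high and 0.597% in low intensity. At the unadjusted limit, 8.67% of all genes were higher and 7.28% lower in high intensity. In low intensity, 8.57% were higher and 6.61% lower. Of 9 receptor and uptake genes, 6 were fitted and 0 were called in any comparison, with 2 higher and 0 lower at an unadjusted p under 0.05 in each intensity group. Ddr1, a kinase that binds collagen, was at 72.7 TPM, Mrc2, which takes collagen up, at 11.2 TPM and Itga1, an integrin chain, at 7.20 TPM.

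All 4 of these calls were lost in some fits. Leaving out each deeper library in turn, an adjusted p under 0.05 was found in 4 of 21 fits for Serpinh1 in high intensity (adjusted p 0.0157 to 0.175), in 9 of 21 for Pcolce in high intensity (0.0147 to 0.210), in 8 of 21 for Pcolce in low intensity (0.0186 to 0.131) and in 13 of 21 for P4ha1 on the static array (0.0194 to 0.329). With all 26 libraries the adjusted p was 0.442 for Serpinh1, 0.121 and 0.164 for Pcolce and 0.708 for P4ha1.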

How the data were processed

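The assay was RNA-seq of motor neuron spheroids, with 26 libraries in 5 groups taken from the sample labels. Gene-level estimated counts were deposited by the authors, with a second deposited table in TPM (transcripts scaled to a fixed total per library and corrected for length). The submitters' processing notes name STAR, Salmon, BWA 0.7.12-r1039 and bedtools 2.25.0 and the builds mm10, hg19 and GRCm39, with no role given. Because TPM are shares of the whole library, a shift in non-coding RNA moves every other TPM.

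Estimated counts were rounded and tested with edgeR 4.0.16 (quasi-likelihood F-test, TMM, filterByExpr, all 5 groups in 1 model) in the 21 libraries with at least 1000000 counts on protein-coding genes. This kept 14730 genes, 35 of them collagens, and p-values were adjusted over all 14730 by Benjamini-Hochberg. Totals ran from 1551334 to 13162635 counts. DESeq2 1.42.0, limma 3.58.1 and R 4.3.3 served the alternatives. Within-group pairs of libraries differed by far more than sampling noise (chi-square per degree of freedom from 4.74 to 308 over 57 pairs), so none was counted as a repeat. The fit was tested on simulated data.

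Values in every deeper library are given for 17 collagens: any called, the 3 of highest mean TPM in the fibrillar, basement membrane and other classes, and the 2 of smallest p in each of 6 comparisons. Related genes were named by abundance or a call. The members, classes and lists were chosen with earlier results of these data known. Alternatives on unadjusted p and on the Col4a1 to Col4a2 ratio by counts were chosen after seeing the data.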

Additional observations from a re-analysis of the deposited data

Results flagged for a closer look

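For the 17 collagens given library by library, the related genes called and the summed class levels, each group of 4 or 5 deeper libraries was searched for 1 value far from the rest (a gap to the nearest library over 0.829 of the group's range with 4 libraries, or over 0.71 with 5). Of 92 groups, 6 held one. These limits give about 1 in 20 groups by chance if the values are normally distributed. The values were searched without taking logs, where high ones lie further out, so that rate may not hold here. In 3 cases it was low-intensity replicate 2, the highest of its group: Col1a1 at 1332 CPM where the others were at 65.8 to 366, Col4a2 at 519 CPM (others 156 to 260) and Col12a1 at 476 CPM (others 243 to 299). In 2 cases it was control replicate 2, again the highest, with Col1a1 at 423 CPM (others 120 to 206) and Col4a1 at 382 CPM (others 173 to 227). The sixth was high-intensity replicate 6, the lowest in Col5a2 at 41.3 CPM (others 97.6 to 109). Genes of 1 library share its cells, so these are not separate events.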

How the results depend on the processing

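With 35 or 36 collagens tested and 0 called in each of 6 comparisons, the number called was as follows elsewhere. In high intensity against control it was 1 at an adjusted p under 0.1 (294 of all 14730 genes), 2 with these groups alone and 12 without the low-count filter. It was 2 by DESeq2, and 9 and 8 by limma on log2(TPM + 1) and log2(TPM + 0.1). On these TPM scales 2324 and 2292 of all 14730 genes were called. In low intensity against control it was 2 at 0.1 (378 of all genes), 12 without the filter, 2 by DESeq2, and 13 and 13 on the TPM scales. There 5440 and 5537 of all 14730 genes were called, a share near that of the collagens. For the static array against control it was 1 at 0.1 (234 of all genes), 1 with these groups alone and 4 without the filter. It was 2 by DESeq2, 1 by limma voom and 1 on log2(TPM + 0.1) (1145 of all genes). Without the filter, 8 were called in high against low intensity and 10 in the interaction. The fit without the filter keeps genes with next to no counts, so its numbers are not on a par with the others. In the main fit 0.462%, 0.597% and 0.713% of all genes were called against control in high, low and static array libraries. Leaving out each library in turn gave 0 to 1, 0 to 2 and 0 to 1 collagen calls there, and 0 in the other comparisons. The cause was not tested.

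Over all genes, the counts of 68 (high), 88 (low) and 105 (static array, each against control) became 700, 660 and 459 without the filter, 467, 471 and 381 by DESeq2, 0, 1 and 151 by limma voom, 17, 21 and 42 with the groups alone, 6, 4 and 2 with all 26 libraries, and 25, 73 and 87 with counts thinned to 1551334. On log2(TPM + 1) they were 2324, 5440 and 1091, of which 2315, 5423 and 1087 were higher, on a scale whose medians lie above the controls.

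Ratios of summed class TPM to control moved for fibrillar genes from 4.04 to 6.18 (high) and from 2.74 to 11.1 (low) with all 26 libraries, which include low-intensity replicate 6 with 4 collagen counts. For the other collagens, CPM in place of TPM moved 1.90 to 1.06 (actuated), 1.57 to 0.947 (static), 2.17 to 1.30 (high) and 2.11 to 1.19 (low), and all 26 libraries gave 2.16 (static). Of 1081 values for 31 single-gene results, 953 kept direction and side of the threshold, 54 passed it, 69 missed it and 5 reversed: Col12a1 in low intensity (-0.10 with all 26 libraries, -0.026 without low-intensity replicate 2, and up to 0.26 without another library), Col1a1 there (-0.11 without that library, up to 1.38 without another) and Col15a1 under actuation (-0.074 and -0.21 on the TPM scales).

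The replicate block called 0 collagens, and 2, 8 and 36 genes against control (high, low, static) and 1 in the interaction. With it, the adjusted p was 0.073 for Serpinh1, 0.074 and 0.177 for Pcolce and 0.189 for P4ha1. Same-numbered libraries correlated from -0.22 to 0.18 in their deviations, in no comparison all over 0.1, so the numbers name libraries and pair none. In the 5 shallow libraries, the 4 to 1112 collagen counts in all limit what can be read of single genes.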
